A study of Homo sapiens with 12 samples.

Results

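Heat shock proteins and their partners were followed in 12 RNA sequencing libraries of DU145 and PC3, both established human prostate cancer cell lines. The genes were chosen by symbol from the HSP families, their co-chaperones and the CCT complex, which gave 32 of the 18950 genes in the table, without use of their values. Of these, 31 lay above the expression minimum of 16 CPM (read counts scaled by library size) in at least 3 libraries, and CRYAB lay below it. The set is wider than the cytosol: HSPA9, HSPD1 and HSPE1 encode mitochondrial chaperones, and SERPINH1 encodes a chaperone of the endoplasmic reticulum. Each line grew in DMEM with 10% FBS and was sorted by how brightly the cells glowed with a green fluorescent protein (GFP) that, per the labels, reports Wnt/β-catenin signaling. The brightest 10% of cells were taken as signaling active (GFP high) and the dimmest 10% as inactive (GFP low), which gave 4 groups of 3 libraries, GFP high and GFP low of DU145 and of PC3. Both sorts were drawn from the same line and differ in GFP brightness. Whether all cells of the dim sort carried the reporter was not tested, and GFP itself was not analysed here. The labels name no mutation, drug or heat treatment and do not say whether the lines are clones or whether replicate libraries stem from separate cultures. For the latter reason, p-values reflect the spread among these particular libraries, and that spread may be technical. Levels come from bulk RNA, in which a smaller share of expressing cells and less RNA per cell cannot be told apart.

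Heat shock proteins bind unfolded stretches of other proteins and keep them from clumping. HSP70 proteins work in cycles driven by ATP with J-domain partners that deliver clients and exchange factors that release nucleotide, and HSP90 then finishes the folding of kinases, steroid receptors and other signaling proteins with the help of its own co-chaperones. The CCT ring folds actin and tubulin. Many of these genes are switched on together by the transcription factor HSF1, which binds heat shock elements, arrays of inverted GAA units, in their promoters, and tumor cells often hold this system at a high level.

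The promoters of 5 members are shown first, those of the near-identical pair HSPA1A and HSPA1B, of SERPINH1, which had the largest change called between sorts, and of both cytosolic HSP90 genes, as the 250 bases before the annotated start, with letters that match at least 2 adjoining heat shock units in capitals (GAANNTTC or TTCNNGAA, N being any base; each pattern reads the same on both strands, and overlapping matches run together). They come from RefSeq on GRCh38.p14 and lie at chr6:31815293-31815542 (plus strand), chr6:31827488-31827737 (plus), chr11:75562003-75562252 (plus), chr14:102087045-102087294 (minus) and chr6:44247693-44247942 (plus), each written 5′ to 3′ on the strand of its gene. Where a gene has several annotated starts, the window with the most matches is shown.
HSPA1A: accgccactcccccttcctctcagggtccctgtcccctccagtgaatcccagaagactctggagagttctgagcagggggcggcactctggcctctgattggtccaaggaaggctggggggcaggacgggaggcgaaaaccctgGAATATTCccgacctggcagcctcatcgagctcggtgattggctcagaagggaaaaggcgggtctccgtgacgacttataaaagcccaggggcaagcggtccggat
HSPA1B: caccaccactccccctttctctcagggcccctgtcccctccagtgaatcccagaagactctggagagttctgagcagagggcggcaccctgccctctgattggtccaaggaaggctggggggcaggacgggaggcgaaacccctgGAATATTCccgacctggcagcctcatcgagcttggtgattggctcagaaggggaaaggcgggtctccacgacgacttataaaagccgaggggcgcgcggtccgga
SERPINH1: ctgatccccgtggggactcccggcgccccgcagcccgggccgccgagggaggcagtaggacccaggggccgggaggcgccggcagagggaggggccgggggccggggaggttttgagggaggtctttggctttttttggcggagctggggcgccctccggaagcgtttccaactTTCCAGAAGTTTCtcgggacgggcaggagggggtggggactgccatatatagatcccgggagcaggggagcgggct
HSP90AA1: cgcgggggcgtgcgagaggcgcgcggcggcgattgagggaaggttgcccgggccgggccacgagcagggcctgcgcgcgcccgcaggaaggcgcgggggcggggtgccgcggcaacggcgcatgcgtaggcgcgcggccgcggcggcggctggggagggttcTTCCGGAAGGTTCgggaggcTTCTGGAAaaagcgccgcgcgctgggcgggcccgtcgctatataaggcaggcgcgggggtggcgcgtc
HSP90AB1: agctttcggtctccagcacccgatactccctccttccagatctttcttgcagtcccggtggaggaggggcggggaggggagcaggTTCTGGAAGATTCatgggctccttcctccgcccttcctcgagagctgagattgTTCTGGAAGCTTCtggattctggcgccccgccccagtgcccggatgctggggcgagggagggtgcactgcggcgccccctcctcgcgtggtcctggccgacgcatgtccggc

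HSPA1A and HSPA1B share most of this stretch, with 93.6% identical positions, and each carries the same short match. SERPINH1, HSP90AA1 and HSP90AB1 hold runs of 3 adjoining units in the windows shown, and their windows at other annotated starts (1, 1 and 2 windows) hold no match. Across members, 28 of 32 were matched to 40 promoter windows of 300 bases (250 before and 50 after the start), and ST13, CRYAB, HSF1 and FKBP4 had none. A match of at least 2 units stood in 18 of the 40 windows (17 members), and 13.5% of the 35116 windows of all genes held one. A run of 3 units (either pattern extended by 1 more alternating unit after any 2 bases, searched on both strands) stood in 8 of the 40 windows, each of a different member (HSPD1, HSP90AB1, DNAJB6, DNAJA1, SERPINH1, CHORDC1, HSPA8 and HSP90AA1), and 0.49% of all windows held one. These matches describe letters and show no binding.

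The libraries held 13453614 to 21528810 estimated counts, so an absence of counts still permits up to 0.233 CPM (3 counts), a limit that covers counting error only. The deposited scaling did not follow these totals alone. In DU145, 3 counts stood for 0.1818 CPM in GFP low replicate 1 (18463611 counts) and 0.1808 CPM in GFP high replicate 2 (16320733 counts). Differences and overlap between sorts are given on that scaling, and scaling by total counts was not tested. The variance between replicates was 6.34 to 46.2 times that of sampling, so each was a library of its own. LEF1, a Wnt target, rose in GFP high of both lines (log2 fold change 1.87 ± 0.40 in DU145, limma adjusted p = 0.00959, and 1.67 ± 0.40 in PC3, adjusted p = 0.022, in a fit to all genes), and AXIN2, which encodes a feedback inhibitor, did not pass (0.93 ± 0.58, adjusted p = 0.304, and 0.32 ± 0.58, adjusted p = 0.814). The PC3 call of LEF1 was lost when GFP low replicate 2 or a single GFP high library was omitted (up to 0.107). Among cell type markers, KRT18 was detected at 338 to 2023 CPM, while KRT19, EPCAM and CDH1 had at most 4, 3 and 11 estimated counts in a library and KLK3, KLK2 and TMPRSS2 at most 1, so these prostate epithelial genes were absent or nearly so. Markers of blood, vessel and connective tissue cells had at most 29 counts. DU145 GFP high replicate 3 lay between its group and GFP low for many members, and PC3 GFP high replicate 3 did so for HSPA1A, HSPA1B, BAG3 and DNAJB1. Where leaving out either library changed a member's call, this is stated with the member.

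The question was whether chaperone transcripts differed between cells with a bright and with a dim Wnt reporter, and whether both lines moved alike. In DU145, 4 members rose in GFP high (HSP90AA1, HSPH1, CCT8 and HSPE1), 8 fell (HSPA1B, HSPB1, SERPINH1, AHSA1, FKBP4, CCT3, CCT5 and CCT7) and 19 of 31 did not pass (limma over all 8655 genes tested, Benjamini-Hochberg adjusted p under 0.05). The 38.7% called lay close to the 36.2% called among all genes tested (15.5% higher and 20.7% lower), and the medians of the log2 fold changes were -0.12 for the members and -0.07 for all genes. In PC3, 1 member rose (DNAJB6), 5 fell (HSPA1A, HSPA1B, HSPB1, DNAJB1 and SERPINH1) and 25 did not pass, which is 19.4% beside 10.0% of all genes (4.39% higher and 5.63% lower), with medians of -0.08 and -0.01. HSPA1A and HSPA1B may not count as separate falls in PC3, since short reads may not separate these copies. HSPA1B, HSPB1 and SERPINH1 fell in both lines, and no member rose in both. The called changes were small, between 1.17-fold (DNAJB6 in PC3) and 1.75-fold (SERPINH1 in PC3).

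Single libraries decided how many DU145 members passed, and the share of all genes called moved with them. The count was 2 without replicate 1 or 2 of GFP high or replicate 3 of GFP low, where 9.99%, 12% and 10.1% of all genes were called. It was 4 without replicate 1 of GFP low (14.6% of all genes) and 16 without replicate 3 of GFP high (56.9%). In PC3 it was 1 without GFP high replicate 2 (5.36% of all genes), 2 without replicate 1 of GFP high (5.34%) or of GFP low (6.25%), and 3 without replicate 2 (7.19%) or 3 (10%) of GFP low. Another scaling changed the balance of directions in DU145. Equal library medians gave 5 members higher and 6 lower, beside 1471 and 1342 of all genes (32.5% called). Quantile normalization gave 6 higher and 2 lower, beside 807 and 852 of all genes (19.2%). In PC3, equal medians gave 1 higher and 3 lower, beside 402 and 360 of all genes (8.8%). Quantile normalization gave 1 higher and 7 lower there, beside 541 and 516 of all genes (12.2%).

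**Figure D1:**
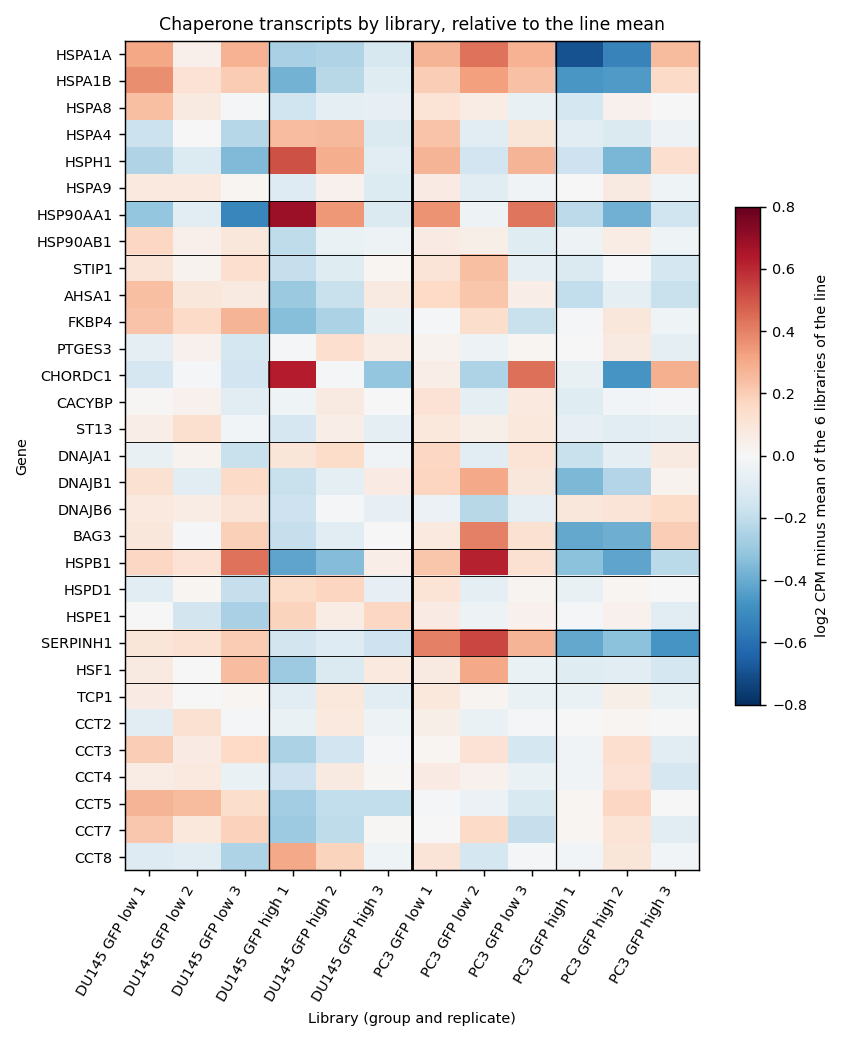
Level of the 31 members above the minimum in each of the 12 libraries, as log2 CPM minus the mean of the 6 libraries of that line (colour, red higher and blue lower). Thin vertical lines separate the sorts, the thick line the cell lines, and horizontal lines the roles. SERPINH1 and HSPB1 are red in PC3 GFP low and blue in PC3 GFP high, while HSP90AA1 is red in DU145 GFP high replicates 1 and 2 and in PC3 GFP low replicates 1 and 3.

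**Figure D2:**
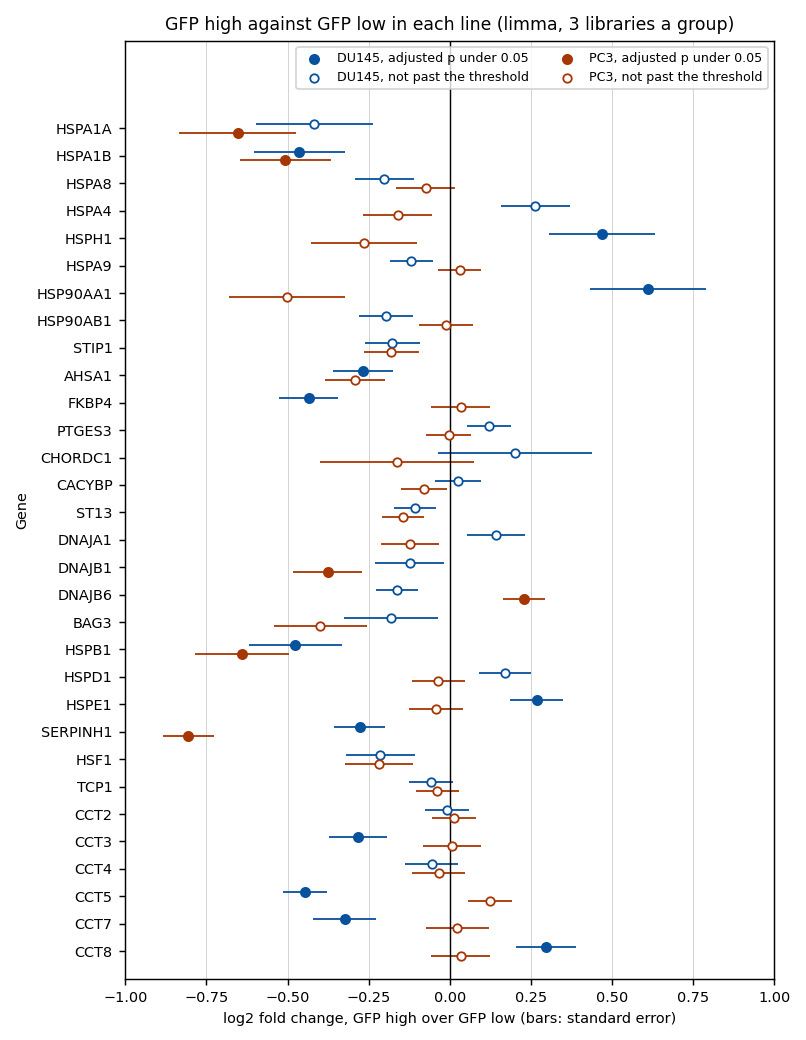
log2 fold change of GFP high over GFP low for each of the 31 members in DU145 (blue) and PC3 (brown), with bars for the limma standard error of 3 libraries against 3. Filled points passed the test at an adjusted p under 0.05 (12 in DU145 and 6 in PC3), and HSP90AA1 and HSPH1 lie on opposite sides of 0 in the 2 lines.

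HSF1, the transcription factor that switches on heat shock genes, did not pass in either line. In DU145 its transcript stood at 205, 232 and 265 CPM in the GFP high libraries and 264, 251 and 297 CPM in the GFP low libraries (log2 fold change -0.21 ± 0.11, adjusted p = 0.118). In PC3 the level was 166, 166 and 161 CPM in GFP high against 187, 219 and 171 CPM in GFP low (-0.22 ± 0.11, adjusted p = 0.235). The sorts overlapped in DU145 and did not in PC3. Without DU145 GFP high replicate 3, the DU145 difference passed (adjusted p = 0.022). Values for a gene are given here and below in the order of replicates 1, 2 and 3.

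The inducible HSP70 genes HSPA1A (ENSG00000204389, chromosome 6, 31815464 to 31817946 in GENCODE 29 on GRCh38) and HSPA1B (chromosome 6, 31827735 to 31830255) encode nearly the same protein and stood lower in GFP high of both lines. HSPA1A was at 212, 214 and 232 CPM in the GFP high libraries and 314, 260.5 and 307 CPM in the GFP low libraries in DU145 (log2 fold change -0.42 ± 0.18, adjusted p = 0.0823) and did not pass there, although the sorts did not overlap. With DU145 fitted alone it passed (adjusted p = 0.00946). In PC3 it was at 177, 198 and 342 CPM in GFP high against 346, 387 and 348 CPM in GFP low and fell (-0.65 ± 0.18, adjusted p = 0.0363), a 1.57-fold change. GFP high replicate 3 of PC3 lay just below the GFP low libraries and the other 2 far below them. HSPA1B fell in DU145, from 216, 181 and 192 CPM in GFP low to 128, 143 and 156 CPM in GFP high (-0.46 ± 0.14, adjusted p = 0.0249). It also fell in PC3, where it stood at 139, 141 and 214 CPM in GFP high against 220.1, 242 and 226 CPM in GFP low (-0.51 ± 0.14, adjusted p = 0.0363). Both genes thus kept their sorts apart in each line. Without PC3 GFP high replicate 3 the PC3 changes were -0.94 for HSPA1A (adjusted p = 0.000112) and -0.71 for HSPA1B (0.000842). The PC3 calls were lost when any 1 of the other 5 PC3 libraries was left out, at adjusted p-values of 0.0549 to 0.164 for HSPA1A and 0.0601 to 0.164 for HSPA1B. The DU145 call of HSPA1B was lost without GFP high replicate 1 or 2 or GFP low replicate 1 or 3 (0.0741 to 0.107), after quantile normalization (0.132) and with a trend in transcript GC content and length removed (0.322).

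Short reads may not separate these copies. Of the 2434 stretches of 50 bases in the HSPA1A transcript, 72.6% occur unchanged in that of HSPA1B, and the estimated counts of both genes were fractional in all 12 libraries. Their summed level avoids the split. It was 340.5, 357 and 388 CPM in DU145 GFP high against 530.1, 441.5 and 499 CPM in DU145 GFP low. In PC3 the sum was 316, 338 and 556 CPM in GFP high against 566, 629 and 574 CPM in GFP low. The sorts did not overlap in either line, and PC3 GFP high replicate 3 came close to the lowest GFP low library.

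HSPA8, the HSP70 that cells make at all times, was the most abundant member per length of transcript. On the scale of CPM per kb of principal transcript it stood at 1300 in DU145 GFP high, 1500 in DU145 GFP low, 1230 in PC3 GFP high and 1290 in PC3 GFP low. HSPA1A stood at 88.4, 118, 96.2 and 145 CPM per kb in the same groups. The HSPA8 libraries of DU145 held 3061, 3257 and 3270 CPM in GFP high against 4050, 3606 and 3395 CPM in GFP low, without overlap (log2 fold change -0.20 ± 0.09, adjusted p = 0.0911). Those of PC3 held 2814, 3171 and 3085 CPM in GFP high against 3336, 3235 and 2977 CPM in GFP low and overlapped (-0.07 ± 0.09, adjusted p = 0.696). HSPA8 passed in neither line.

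HSPH1, an HSP110 protein that releases nucleotide from HSP70, rose in DU145. It stood at 108, 92.7 and 71.3 CPM in the GFP high libraries and 64.2, 70.3 and 59.4 CPM in the GFP low libraries (log2 fold change 0.47 ± 0.16, adjusted p = 0.0404), with GFP high replicate 3 only just above the highest GFP low library. In PC3 it stood at 109.8, 95.3 and 135 CPM in GFP high against 149, 111 and 149 CPM in GFP low, the sorts overlapped, and it did not pass (-0.26 ± 0.16, adjusted p = 0.369). The DU145 call was lost without GFP high replicate 1 or 2 or GFP low replicate 1 or 3 (0.1 to 0.179) and under several other settings, among them quantile normalization (0.0624) and removal of the GC and length trend (0.486). Its relative HSPA4 (DU145 log2 fold change 0.26 ± 0.11, adjusted p = 0.0653; PC3 -0.16 ± 0.11, adjusted p = 0.409) and the mitochondrial HSP70 gene HSPA9 (DU145 -0.12 ± 0.07, adjusted p = 0.166; PC3 0.03 ± 0.07, adjusted p = 0.847) did not pass. Without DU145 GFP high replicate 3, HSPA4 passed in DU145 (0.00444), and likewise without GFP low replicate 2 (0.0432). Of the 6 HSP70 and HSP110 genes, 1 rose and 1 fell in DU145 and 2 fell in PC3.

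Of the 2 cytosolic HSP90 genes, HSP90AA1 rose in DU145 and HSP90AB1 passed in neither line. HSP90AA1 (ENSG00000080824, chromosome 14, 102080738 to 102139699), the stress-inducible form, rose 1.53-fold in DU145. Its level was 1463, 1155 and 841 CPM in the GFP high libraries and 732, 857 and 634 CPM in the GFP low libraries (log2 fold change 0.61 ± 0.18, adjusted p = 0.0223). GFP high replicate 1 was highest by a wide margin, and GFP high replicate 3 lay below the highest GFP low library, so the sorts overlapped. In PC3 the order was the reverse, with 1054, 934 and 1088 CPM in GFP high against 1563, 1184 and 1637 CPM in GFP low, and the sorts did not overlap (-0.50 ± 0.18, adjusted p = 0.101). The PC3 difference did not pass by itself, and it passed with the replicate number as a block (adjusted p = 0.00556), with the GC and length trend removed (0.0181) and without PC3 GFP low replicate 2 (0.0432). The DU145 call was lost without GFP high replicate 1 or 2 or GFP low replicate 1 or 3 (0.0678 to 0.108).

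HSP90AB1, the constitutive form, held the second place per length of transcript in every group, at 1170, 1330, 1120 and 1130 CPM per kb in GFP high and low of DU145 and GFP high and low of PC3. HSP90AA1 stood at 341, 219, 303 and 433 CPM per kb. In DU145, HSP90AB1 libraries held 2898, 3212 and 3245 CPM in GFP high against 3737, 3428 and 3544 CPM in GFP low, with GFP high below GFP low throughout (log2 fold change -0.20 ± 0.08, adjusted p = 0.0769). In PC3 they held 2929, 3139 and 2943 CPM in GFP high against 3151, 3121 and 2822 CPM in GFP low and overlapped (-0.01 ± 0.08, adjusted p = 0.959). Neither difference passed. The transcripts of the 2 genes share 57.5% of aligned positions and 0 stretches of 50 bases.

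Among the 7 co-chaperones and adaptors of HSP90, 2 fell in DU145 and the other 5 did not pass, and in PC3 0 of 7 passed (limma and voom; 2 had an unadjusted p under 0.05). FKBP4, an immunophilin that serves steroid receptors, fell 1.35-fold in DU145. It stood at 227, 240.4 and 276 CPM in the GFP high libraries and 336, 319 and 347 CPM in the GFP low libraries (log2 fold change -0.43 ± 0.09, adjusted p = 0.00604), and all 3 GFP high libraries lay below all GFP low ones. In PC3 it stood at 239, 256 and 235 CPM in GFP high against 238, 266 and 212 CPM in GFP low, with overlap (0.03 ± 0.09, adjusted p = 0.881). AHSA1, which speeds the ATP cycle of HSP90, fell in DU145, where it stood at 167, 181 and 216 CPM in GFP high against 242, 218 and 216 CPM in GFP low (-0.27 ± 0.09, adjusted p = 0.039). GFP high replicate 3 and GFP low replicate 3 of DU145 were almost level. In PC3 the AHSA1 libraries held 117, 128 and 119 CPM in GFP high against 149.7, 157 and 139.5 CPM in GFP low, did not overlap and did not pass (-0.29 ± 0.09, adjusted p = 0.0622), and the difference passed with the replicate block (0.0392). The DU145 call of FKBP4 held without any single library and was lost without both GFP high replicates 1 and 2 (0.35). That of AHSA1 was lost without any 1 of 5 of the 6 DU145 libraries, all but GFP high replicate 3 (0.05 to 0.179), at equal medians (0.0679) and with the GC and length trend removed (0.26).

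The others were STIP1, which bridges HSP70 and HSP90 (DU145 log2 fold change -0.18 ± 0.08, adjusted p = 0.107; PC3 -0.18 ± 0.08, adjusted p = 0.218), ST13, an HSP70 partner (-0.11 ± 0.07 and -0.14 ± 0.07), PTGES3, the p23 co-chaperone (0.12 ± 0.07 and -0.00 ± 0.07), CACYBP (0.03 ± 0.07 and -0.08 ± 0.07) and CHORDC1 (0.20 ± 0.24 and -0.16 ± 0.24). Without DU145 GFP high replicate 3, STIP1 passed in DU145 (0.0406). CHORDC1 was the least repeatable member, from 20.4 to 39.0 CPM within DU145 GFP high and from 39.6 to 66.9 CPM within PC3 GFP high.

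Of the 4 genes made up of J-domain proteins and BAG3, DNAJB1 fell and DNAJB6 rose in PC3, and in DU145 0 of 4 passed (limma and voom; 1 had an unadjusted p under 0.05). DNAJB1, the heat-inducible J-domain partner of HSPA1A, stood in PC3 at 134, 147 and 176 CPM in the GFP high libraries and 194, 212 and 183 CPM in the GFP low libraries (log2 fold change -0.38 ± 0.11, adjusted p = 0.0388). In DU145 it stood at 143, 153 and 169 CPM in GFP high against 176, 152 and 179 CPM in GFP low and overlapped (-0.12 ± 0.11, adjusted p = 0.351). DNAJB6, which holds aggregation-prone proteins in solution, moved the other way in PC3, from 239, 211 and 234 CPM in GFP low to 263, 264 and 273 CPM in GFP high (0.23 ± 0.07, adjusted p = 0.0435). In DU145 its GFP high libraries, at 239, 266 and 257 CPM, lay below the GFP low ones, at 283, 280.1 and 289 CPM (-0.16 ± 0.07, adjusted p = 0.0658). The PC3 call of DNAJB6 was lost without any 1 of the 6 PC3 libraries (0.0529 to 0.143), and that of DNAJB1 without GFP high replicate 1 or 2 or GFP low replicate 1 or 2 (0.0988 to 0.179) and at equal medians (0.0721). Without PC3 GFP high replicate 3, DNAJB1 was at -0.48 (0.0149) and DNAJB6 at 0.21 (0.135).

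BAG3, an HSP70 exchange factor that directs damaged proteins to autophagy, stood at 46.3, 47.0 and 70.6 CPM in the GFP high libraries and 64.9, 81.3 and 66.8 CPM in the GFP low libraries in PC3 and did not pass (log2 fold change -0.40 ± 0.14, adjusted p = 0.104), with GFP high replicate 3 inside the GFP low range. In DU145 its level was 94.9, 101 and 108 CPM in GFP high against 115, 107 and 123 CPM in GFP low, with overlap (-0.18 ± 0.14, adjusted p = 0.315). The PC3 difference was -0.60 (adjusted p = 0.00582) without that library, and it passed with the replicate block (0.0445). DNAJA1, another J-domain protein, did not pass in DU145 (0.14 ± 0.09, adjusted p = 0.207) or PC3 (-0.12 ± 0.09, adjusted p = 0.465).

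HSPB1, or HSP27, a small heat shock protein that holds unfolded proteins without ATP, fell in both lines. In DU145 it stood at 114, 120.5 and 159 CPM in the GFP high libraries and 172, 166 and 206 CPM in the GFP low libraries (log2 fold change -0.48 ± 0.14, adjusted p = 0.0252). In PC3 it stood at 65.1, 61.1 and 70.5 CPM in GFP high against 95.4, 125 and 88.7 CPM in GFP low (-0.64 ± 0.14, adjusted p = 0.0132), a 1.56-fold change. The sorts did not overlap in either line, and GFP high replicate 3 of DU145 came nearest to GFP low. The DU145 call was lost without GFP high replicate 1 or 2 or GFP low replicate 1 or 3 (0.0592 to 0.114), after quantile normalization (0.0889) and with the GC and length trend removed (0.0855). The PC3 call was lost without GFP high replicate 2 (0.0614). The related CRYAB was barely present, with 0, 0 and 0 estimated counts in GFP high of DU145 against 1, 0 and 1 in its GFP low, and 3, 10 and 2 in GFP high of PC3 against 8, 9 and 1 in its GFP low. A difference in CRYAB between sorts was not detectable at this depth (limma fit to all genes, adjusted p = 0.464 in DU145 and 0.816 in PC3). Between lines it was higher in PC3 in the same fit (log2 difference 2.37 ± 0.56, adjusted p = 0.00198), a value that depends on the offset of 0.5 counts, since DU145 libraries held at most 1 count.

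HSPD1 (HSP60) and HSPE1 (HSP10) form the folding chamber of mitochondria, and their genes lie on opposite strands of chromosome 2 with overlapping annotated spans. HSPE1 rose in DU145, from 56.6, 51.2 and 47.3 CPM in GFP low to 63.9, 59.0 and 63.4 CPM in GFP high, without overlap (log2 fold change 0.27 ± 0.08, adjusted p = 0.0266). PC3 libraries held 75.9, 78.4 and 71.8 CPM in GFP high against 80.1, 74.4 and 78.3 CPM in GFP low (-0.04 ± 0.08, adjusted p = 0.821). HSPD1 stood at 501, 509 and 432 CPM in GFP high against 427, 456 and 398 CPM in GFP low in DU145, with overlap (0.17 ± 0.08, adjusted p = 0.107). PC3 libraries of HSPD1 held 624, 658 and 650.2 CPM in GFP high against 704, 618 and 661 CPM in GFP low, again with overlap (-0.03 ± 0.08, adjusted p = 0.854). In PC3, 0 of 2 passed (limma and voom; 0 had an unadjusted p under 0.05). The HSPE1 call was lost without GFP high replicate 1 or 2 or GFP low replicate 3 (0.0509 to 0.117), and HSPD1 passed without GFP high replicate 3 (0.0176). Both genes had fractional counts in some libraries.

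SERPINH1 (ENSG00000149257, chromosome 11, 75562056 to 75572783), or HSP47, binds procollagen in the endoplasmic reticulum and gave the largest called change among the members. In PC3 it stood at 59.1, 62.5 and 56.7 CPM in the GFP high libraries and 104, 114 and 94.8 CPM in the GFP low libraries, a fall of 1.75-fold (log2 fold change -0.81 ± 0.08, adjusted p = 2.72e-05). All 3 GFP high libraries lay well below the lowest GFP low library. In DU145 it also fell, to 70.4, 72.8 and 69.6 CPM from 83.3, 84.9 and 89.8 CPM in GFP low, again without overlap (-0.28 ± 0.08, adjusted p = 0.0204). The PC3 call held under all 20 alternatives, from -0.87 to -0.74. The DU145 call was lost without GFP high replicate 1 or 2 or GFP low replicate 3 (0.053 to 0.0864), after quantile normalization (0.0915) and with the GC and length trend removed (0.774).

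**Figure D3:**
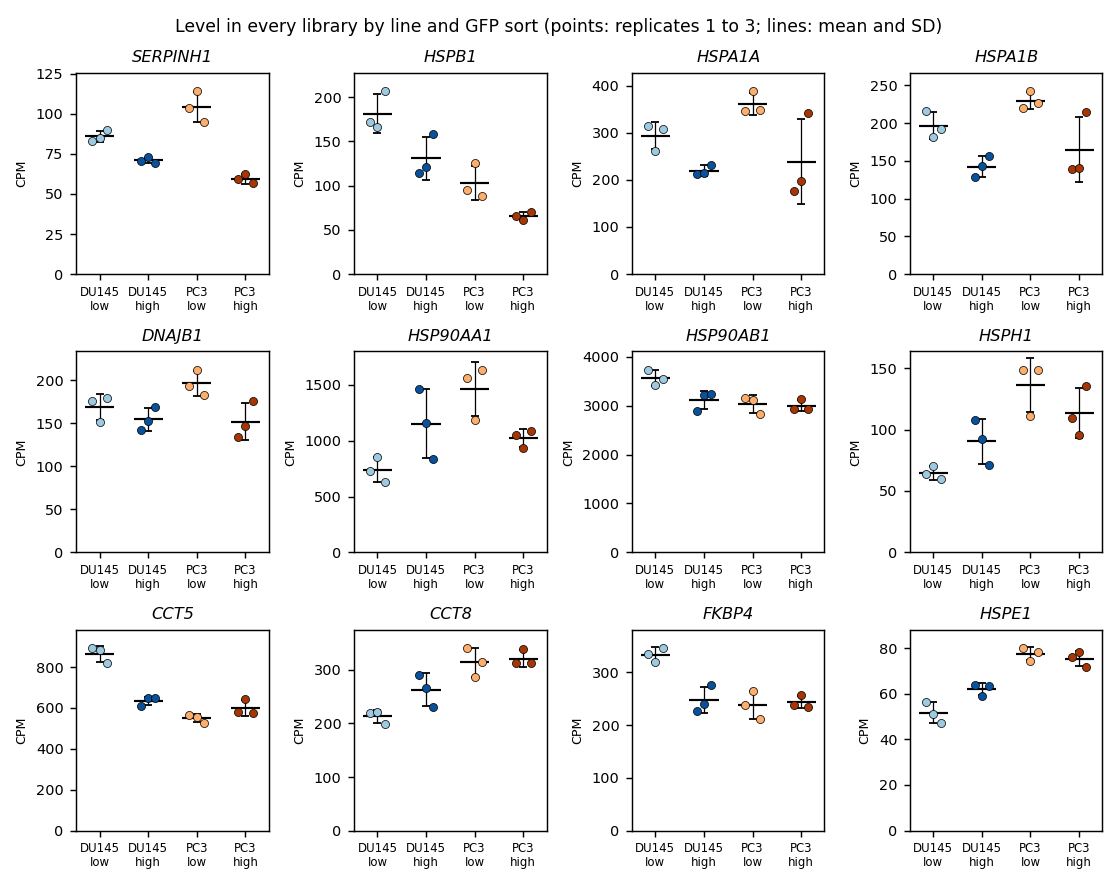
Level in CPM (vertical axis, from 0) of 12 members in the 4 groups, with a point for each library and lines for the mean and SD of 3. SERPINH1 in PC3 has the largest fold difference between sorts (59.5 ± 2.93 CPM in GFP high against 104 ± 9.55 CPM in GFP low), and PC3 GFP high replicate 3 sits near the GFP low level for HSPA1A and HSPA1B.

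The CCT ring is assembled from different subunits in equal numbers, and 7 of their genes are members, yet their transcripts did not move together in DU145. CCT3, CCT5 and CCT7 fell, CCT8 rose, and TCP1, CCT2 and CCT4 did not pass. That is 57.1% of the 7 called, beside 36.2% of all genes (15.5% higher and 20.7% lower). CCT5 (ENSG00000150753, chromosome 5, 10249921 to 10266412) stood at 611, 646 and 646 CPM in the GFP high libraries and 894, 881 and 818 CPM in the GFP low libraries, far apart (log2 fold change -0.44 ± 0.07, adjusted p = 0.00116). CCT3 stood at 916, 982 and 1084 CPM in GFP high against 1253, 1146 and 1223 CPM in GFP low (-0.28 ± 0.09, adjusted p = 0.0286). CCT7 stood at 652, 693 and 805 CPM in GFP high against 928, 848 and 906 CPM in GFP low (-0.32 ± 0.10, adjusted p = 0.0249). In all of these, GFP high lay below GFP low without overlap. CCT8 went the other way, with 291, 267 and 230.4 CPM in GFP high against 219.5, 222 and 199 CPM in GFP low, and GFP high lay above GFP low throughout (0.30 ± 0.09, adjusted p = 0.027). The values for TCP1, CCT2 and CCT4 were -0.06 ± 0.07, -0.01 ± 0.07 and -0.06 ± 0.08. The call of CCT5 held without any single library and under removal of the GC and length trend (-0.54, adjusted p = 2.21e-05), and was lost without both GFP high replicates 1 and 2 (0.0669). Those of CCT3 (0.0864 to 0.129), CCT7 (0.0846 to 0.115) and CCT8 (0.0632 to 0.129) were lost without GFP high replicate 1 or 2 or GFP low replicate 1 or 3. CCT3 was also lost at equal medians (0.0569) and with the GC and length trend removed, where CCT7 and CCT8 were kept. After quantile normalization CCT3 and CCT7 were lost (0.725 and 0.0638).

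In PC3, 0 of the 7 CCT genes passed (limma and voom; 0 had an unadjusted p under 0.05). CCT5 stood at 579, 644 and 575 CPM in the GFP high libraries and 566, 556 and 526 CPM in the GFP low libraries (log2 fold change 0.12 ± 0.07, adjusted p = 0.301). The other 6 lay between -0.04 (TCP1) and 0.03 (CCT8). CCT3 was at 684, 765 and 656 CPM in GFP high against 706, 756 and 634 CPM in GFP low, CCT7 at 555, 591 and 515 CPM in GFP high against 548, 609 and 483 CPM in GFP low, and CCT8 at 313, 339 and 312 CPM in GFP high against 341, 287 and 315 CPM in GFP low, all with overlap. Per length of transcript the subunits were unequal in every group: CCT3 stood at 562 and CCT7 at 467 CPM per kb in DU145 GFP low, where CCT8 stood at 106. In PC3 GFP low these stood at 325, 285 and 157 CPM per kb. The gap between CCT3 and CCT8 was narrower in PC3 GFP low than in DU145 GFP low. CCT4 and CCT5 had fractional counts in some libraries and TCP1 in all 12.

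**Figure D4:**
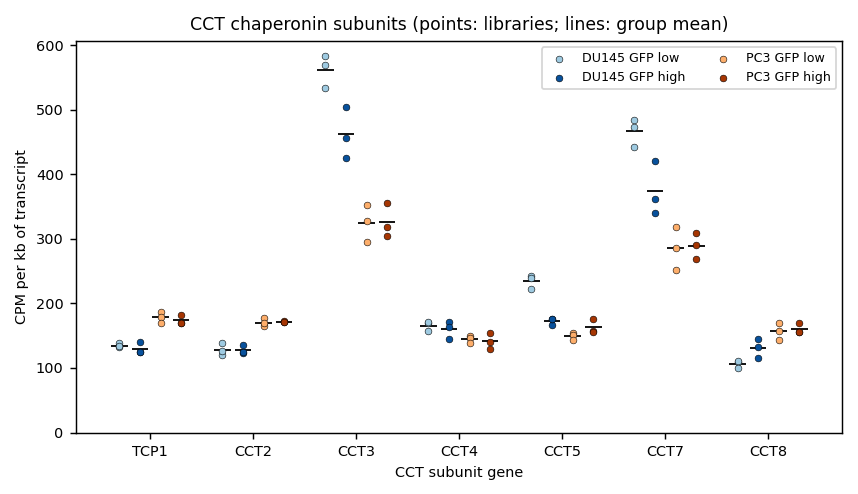
Level per kb of principal transcript (CPM per kb, axis from 0) of the 7 CCT subunit genes, with a point for each library and a line for the group mean. CCT3 and CCT7 stand highest in all 4 groups, and the DU145 GFP high points lie below the DU145 GFP low points for CCT3, CCT5 and CCT7 and above them for CCT8.

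Whether the sorts differed by more in one line than in the other was tested as the difference of the 2 contrasts (PC3 minus DU145). It passed for 6 of 31 members, 3 in each direction, 19.4% beside 19.3% of all genes (11.9% positive and 7.39% negative). HSP90AA1 had the largest difference (log2 difference -1.11 ± 0.25, adjusted p = 0.00998), being 0.61 ± 0.18 in DU145 and -0.50 ± 0.18 in PC3. HSPH1 followed the same pattern (-0.73 ± 0.23, adjusted p = 0.0419). SERPINH1 fell further in PC3 than in DU145 (-0.53 ± 0.11, adjusted p = 0.00695). The difference was positive for CCT5 (0.57 ± 0.10, adjusted p = 0.00176) and FKBP4 (0.47 ± 0.13, adjusted p = 0.0237), which fell in DU145, and for DNAJB6 (0.39 ± 0.09, adjusted p = 0.0125), which rose in PC3. HSPA1A (-0.24 ± 0.26, adjusted p = 0.52), HSPA1B (-0.04 ± 0.20, adjusted p = 0.892) and HSPB1 (-0.16 ± 0.20, adjusted p = 0.578) were not shown to differ between lines. Without PC3 GFP high replicate 3, however, the HSPA1A difference passed (-0.53, adjusted p = 0.0207), and with the GC and length trend removed that of HSPB1 did (-0.32, 0.0146). The calls of HSPH1 (0.0853 to 0.11) and FKBP4 (0.0555 to 0.0665) were lost without any 1 of several libraries, namely DU145 GFP high 1 or 2, DU145 GFP low 1 or 3, PC3 GFP high 2, PC3 GFP low 1 or 3 and, for HSPH1, PC3 GFP high 1. The count was 11 without DU145 GFP high replicate 3 (HSPA4, HSPD1, CCT3, CCT7 and CCT8 added; 37.1% of all genes) or PC3 GFP low replicate 2 (34%), and 1 (CCT5; 6.34% of all genes) with neither replicate 1 nor 2 of DU145 GFP high.

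The DU145 contrast moved with GC content. Across the 31 members, Spearman's rho between the log2 fold change and the GC content of the transcript was -0.71, and over 8651 genes it was also -0.71, as a description, since the genes share the same 12 libraries. The 4 members that rose had 40.0 to 50.2% GC and the 8 that fell 44.6 to 64.3%. In PC3, rho was -0.36 over the members and -0.12 over all genes. With a trend in transcript GC content and length removed from each library, 10 members passed in DU145, where 26% of all genes then passed (36.2% before). These kept HSP90AA1 (0.55, adjusted p = 0.0159), HSPE1 (0.42, 0.0048), CCT8 (0.24, 0.0184), CCT5, CCT7 (-0.14, 0.0265) and FKBP4 (-0.29, 0.00196), lost HSPA1B, HSPB1, HSPH1, SERPINH1, AHSA1 and CCT3, and gained HSPA9, ST13, CHORDC1 and CACYBP, all lower. In PC3, 10 members then passed, beside 23.8% of all genes (10.0% before). All 10 were lower, with the 5 that fell before among them and HSPA4, HSPH1, HSP90AA1, STIP1 and AHSA1 added, while DNAJB6 was lost (0.0628). The part of GC content in the members' changes was not tested beyond this removal.

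**Figure D5:**
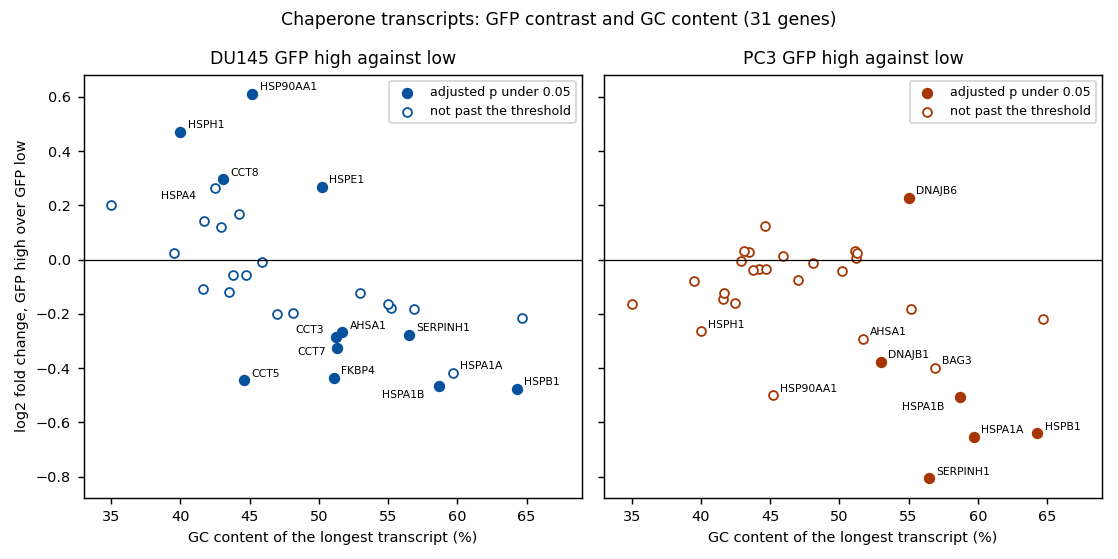
log2 fold change of GFP high over GFP low (vertical axis) against GC content in percent (horizontal axis) for the 31 members in DU145 (left) and PC3 (right), filled where the adjusted p was under 0.05. In DU145 the points slope downward from HSPH1 and HSP90AA1 to HSPB1 (rho -0.71), and in PC3 the slope is weaker (rho -0.36), with SERPINH1 lowest.

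Members with a run of 3 heat shock units were called in both directions. Of these 8, 1 rose and 1 fell in DU145 (median log2 fold change -0.01, 4 estimates negative). In PC3, 1 rose and 1 fell (median -0.10, 7 negative), and the 1 that rose, DNAJB6, lost its call without any single PC3 library. Of the 20 members with a window but no such run, 3 rose and 6 fell in DU145 (median -0.12, 14 negative). In PC3, 4 of the 20 fell (median -0.06, 14 negative). Among all genes tested, 36.2% were called in DU145 and 10.0% in PC3, and the groups of members are too small to set apart from these shares. Of the promoters printed above, those of HSP90AA1, which rose in DU145 (0.61 ± 0.18), and SERPINH1, which fell (-0.28 ± 0.08), both carry such runs, as does that of HSP90AB1, which did not pass (-0.20 ± 0.08). Genes on chromosome 14 were somewhat lower in PC3 GFP high, with a median of -0.18 over 283 genes, and 2 members lie there, HSP90AA1 (-0.50 ± 0.18) and AHSA1 (-0.29 ± 0.09). In DU145, among chromosomes that hold members, the largest medians were on chromosomes 13, 19 and 22, beside -0.07 over all genes. They were 0.24 over 120 genes of chromosome 13, which holds HSPH1 (0.47 ± 0.16), and -0.24 over 589 genes of chromosome 19, which holds DNAJB1 (-0.12 ± 0.11). On chromosome 22, which holds ST13 (-0.11 ± 0.07), the median was -0.36 over 237 genes. The part of these shifts in the members' values was not tested.

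Within groups, most members were repeatable, with a median SD of 0.11 on the log2 scale beside 0.14 for all genes tested. CHORDC1 had the highest within-group SD (0.35), followed by HSPA1A (0.27), HSP90AA1 (0.27) and HSPH1 (0.24), and ST13 had the lowest (0.06). For HSPA1A the spread came mainly from PC3 GFP high (SD 0.51), and for HSP90AA1 from DU145 GFP high (SD 0.40).

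More members differed between the lines than between the sorts of a line. Averaged over both sorts, 13 members were higher and 12 lower in PC3 than in DU145, and 6 did not pass, which is 80.6% beside 79.1% of all genes (39.8% higher and 39.4% lower). CHORDC1 was higher in PC3 by 1.12 ± 0.17 on the log2 scale (limma adjusted p = 3.33e-05), HSPH1 by 0.70 ± 0.12, DNAJA1 by 0.62 ± 0.06, HSPA4 by 0.60 ± 0.08 and HSPD1 by 0.53 ± 0.06. HSPB1 was lower in PC3 (-0.90 ± 0.10, adjusted p = 2.34e-06), as were BAG3 (-0.81 ± 0.10), STIP1 (-0.78 ± 0.06, adjusted p = 5.39e-08), CCT3 (-0.65 ± 0.06) and AHSA1 (-0.61 ± 0.07). The 6 that did not pass were HSPA1A, HSPA1B, HSPA8, HSPA9, DNAJB1 and SERPINH1. Of these, HSPA1B passed without DU145 GFP high replicate 3 or PC3 GFP high replicate 1 or 2. HSPA1A passed without PC3 GFP high replicate 1, and HSPA8 without DU145 GFP high replicate 1 or GFP low replicate 3. The HSP90AB1 call (-0.14 ± 0.06, adjusted p = 0.0361) was lost without any 1 of 7 libraries (0.0544 to 0.0864). DU145 GFP high replicate 3 and PC3 GFP high replicate 3 were among them. That of DNAJB6 was lost without any 1 of 5 (0.052 to 0.0641). The CCT genes split between lines, with TCP1, CCT2 and CCT8 higher and CCT3, CCT4, CCT5 and CCT7 lower in PC3. Over all genes this contrast had a rho of -0.61 with GC content. With the GC and length trend removed 28 of 31 members passed, beside 81.7% of all genes. Of these 28, 16 kept their call and direction. The signs of HSPH1, CHORDC1, HSF1, DNAJB6, PTGES3, CACYBP and ST13 turned under that removal, so the direction of those between lines depends on it.

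Other chaperone genes were read from a list of 80, of which 79 were in the table and 62 above the minimum. In DU145, 6 of these rose and 14 fell (32.3% beside 36.2% of all genes), and in PC3 1 rose and 2 fell (4.84% beside 10.0%). Among other HSP70 genes and exchange factors, HSPA13 rose in DU145 (0.91 ± 0.22, limma adjusted p = 0.0102), as did HSPA14 (0.42 ± 0.13), and BAG6 fell (-0.36 ± 0.09). Other J-domain genes included DNAJC13, which rose (0.81 ± 0.22), and DNAJB2, which fell (-0.38 ± 0.11). Other co-chaperones of HSP90 fell in DU145 in 5 of 11 cases, beside the 20.7% of all genes that fell, among them CDC37, which brings kinases to HSP90 (-0.33 ± 0.08, adjusted p = 0.0104), SGTA (-0.34 ± 0.11) and the phosphatase gene PPP5C (-0.25 ± 0.08). FKBP5, an immunophilin related to FKBP4, rose in PC3 (0.56 ± 0.11, adjusted p = 0.00615), with 39.8, 38.9 and 35.6 CPM in GFP high against 26.2, 23.2 and 28.3 CPM in GFP low. The prefoldin subunit gene PFDN6, whose complex hands unfolded actin and tubulin to CCT, fell in DU145 (-0.43 ± 0.13).

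In mitochondria, the protease subunit gene CLPP fell (-0.48 ± 0.13) and its partner CLPX rose (0.44 ± 0.12) in DU145, while the protease gene LONP1 fell in PC3 (-0.49 ± 0.10, limma adjusted p = 0.0104). In the endoplasmic reticulum, HSP90B1, the HSP90 of that compartment, rose in DU145 (0.56 ± 0.13, adjusted p = 0.00966). HSPA5, its HSP70, fell in PC3, where it stood at 926, 963 and 892 CPM in GFP high against 1185, 1245 and 1155 CPM in GFP low (-0.37 ± 0.08, adjusted p = 0.0128), and was 0.03 ± 0.08 in DU145. The small heat shock genes beyond HSPB1 and CRYAB had 5 entries in the table, of which 0 were above the minimum. Of the 20 DU145 calls in the list, each was lost without at least 1 DU145 library, at adjusted p-values of up to 0.0522 for CDC37 and 0.0513 for HSPA13 (without GFP low replicate 3), 0.0509 for HSP90B1 (without GFP high replicate 2) and up to 0.175 for the rest (GFP high 1 or 2 or GFP low 1, 2 or 3). In PC3 the call of FKBP5 held without any single library, that of LONP1 was lost without GFP high replicate 3 (0.0522) and that of HSPA5 without GFP high replicate 1 or 3 (up to 0.0576).

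Counting could blur some members. In the annotation, 16 have an exon that overlaps another gene, 13 of them on the other strand, and whether reads were counted by strand is not given in the sources used here. Named pseudogenes exist for 18 members (110 in all, 1 of them in the table). Estimated counts were whole in all 12 libraries for 23 members, in some for HSPD1, HSPE1, CCT4, CCT5 and CACYBP, and in none for HSPA1A, HSPA1B, DNAJB6 and TCP1, whose values are the least certain.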

How the data were processed

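Total RNA was sequenced in 12 libraries, 3 for each line and GFP sort, grouped by their labels. STAR and DESeq2 are listed in the submitters' processing notes, with no version. Build, annotation and read counting were not given in the sources used here. The deposited values, per the labels log2 normalized counts, were read from their steps as log2 CPM with an offset of 0.5 counts, and all 12 columns were used. Undoing the scale yielded estimated counts. In the median library 86.9% of these were whole within 0.01, too few for a count test. CPM values are the deposited values taken out of log2.

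Genes with a log2 value of at least 4 (16 CPM) in at least 3 libraries were kept (8655). The minimum had been set on the assumption of normalized counts. Tests used limma 3.58.1 under R 4.3.3 (eBayes with a mean-variance trend, 4 group means, 8 residual degrees of freedom, two-sided, Benjamini-Hochberg adjustment over all genes kept, threshold 0.05), a procedure tested on simulated data. The simulated noise was independent for each gene and library, so deviations that many genes of a library share were not covered by it. The members follow from a rule on gene symbols that uses no measured value, but that rule and all gene lists were written with earlier results of these data known. Values in every library are given for members that passed in either line and for HSPA1A, HSPA1B, HSPA8, HSP90AA1, HSP90AB1, HSPB1, CRYAB, HSPD1, HSPE1 and HSF1; from each other list, up to 4 genes with the smallest p were eligible for naming. Positions, GC content and length were taken from GENCODE 29 and promoters from RefSeq, both on GRCh38.

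Deviations of same-numbered PC3 libraries correlated at 0.12, 0.43 and 0.35. Libraries of unlike number reached 0.14, so the lowest of these values does not set a pair apart. The labels state no pairing, and the main fits did not use it, with the replicate block as an alternative. Alternatives were other minima, equal medians, quantile normalization, an offset of 8 counts, eBayes without trend or with robust estimation, voom, each line alone, the replicate block, removal of a loess trend in GC content and length (span 0.4), and leaving out libraries.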

Additional observations from a re-analysis of the deposited data

Results flagged for a closer look

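For 6 members the change between GFP sorts differed between PC3 and DU145 by the test of the difference itself, and each is given as PC3 minus DU145 on the log2 scale with its standard error (limma). HSP90AA1 had -1.11 ± 0.25 (adjusted p = 0.00998), HSPH1 -0.73 ± 0.23 (adjusted p = 0.0419) and SERPINH1 -0.53 ± 0.11 (adjusted p = 0.00695). CCT5 had 0.57 ± 0.10 (adjusted p = 0.00176), FKBP4 0.47 ± 0.13 (adjusted p = 0.0237) and DNAJB6 0.39 ± 0.09 (adjusted p = 0.0125). All 3 DU145 GFP low libraries held less HSPH1 than any DU145 GFP high library, while 2 of 3 PC3 GFP low libraries held more than any PC3 GFP high library. With the GC and length trend removed, the difference was -1.09 for HSP90AA1 (0.00164), -0.36 for HSPH1 (0.0189), -0.76 for SERPINH1 (4.84e-05), 0.63 for CCT5 (7.12e-05), 0.29 for FKBP4 (0.0121) and 0.22 for DNAJB6 (0.0614). The HSPH1 difference was lost after quantile normalization (0.0548), with no minimum (0.0582) and without the mean-variance trend (0.0627). DNAJB6 did not pass once GC content and length were accounted for, after quantile normalization (0.17) and without both PC3 GFP low replicates 2 and 3 (0.0711). With neither replicate 1 nor 2 of DU145 GFP high, the differences of HSP90AA1 (0.103), HSPH1 (0.365), SERPINH1 (0.0605), FKBP4 (0.239) and DNAJB6 (0.0699) did not pass, and that of CCT5 did (0.0227). CCT5 and DNAJB6 had fractional counts, CCT5 in some libraries and DNAJB6 in all.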

How the results depend on the processing

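Leaving out 1 library at a time gave 2 to 16 called members in DU145 (12 with all libraries), 1 to 6 in PC3 (6), 4 to 11 for the difference of the contrasts (6) and 23 to 26 for PC3 against DU145 (25). The shares of all genes called were 9.99% to 56.9%, 5.34% to 10%, 11% to 37.1% and 75.9% to 80.2%. Without both DU145 GFP high replicates 1 and 2, 0 members passed in DU145 (limma; 4 had an unadjusted p under 0.05) and 1 for the difference; fewer samples entered these fits, and the lone library was assumed to vary like the other groups. Without both PC3 GFP low replicates 2 and 3, 1 passed in PC3. PC3 gave 2 calls without the mean-variance trend (9.24% of all genes) and 2 with the line fitted alone (7.46%). With the GC and length trend removed there were 10 calls in PC3 (23.8% of all genes) and 12 for the difference (28.4%). With the replicate block added these were 12 (27%) and 17 (34.1%). The replicate block alone gave 16 calls in DU145 (HSPA1A among those added, adjusted p = 0.0242), where the numbers did not pair the libraries (correlations -0.21, 0.19 and 0.47), 9 in PC3, 9 for the difference (HSPA4, CCT3 and CCT7 added) and 24 between lines, and beyond the values given with HSP90AA1, AHSA1 and BAG3 it changed no call in PC3. Of the single gene values under all alternatives, 518 of DU145, 563 of PC3, 745 of the difference and 681 of the line contrast stayed on their side of the threshold, and among these the sign could turn only where neither value passed; 79, 39, 26 and 19 lost their call, and 19, 18, 35 and 26 gained one. With the GC and length trend removed, with or without the block, signs turned to -0.42 for CHORDC1 and -0.23 for CACYBP in DU145. Between lines they turned to -0.053 for HSPH1, 0.48 for DNAJB6, 0.29 for HSF1, -0.13 for PTGES3, -0.18 for CHORDC1, -0.52 for CACYBP and -0.15 for ST13. After quantile normalization they turned to 0.22 for HSPA9, 0.13 for HSP90AB1, 0.067 for DNAJB6 and 0.043 for CCT4. The cause of these shifts was not tested. Of the 32 members, CRYAB had too few counts for a difference between sorts to be detected.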
